A study of Mus musculus with 27 samples.

Results

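The expression of 10 genes of the bone morphogenetic protein (BMP) system, 6 encoding ligands and 4 encoding extracellular antagonists or modulators, was followed through a stepwise differentiation of mouse embryonic stem cells towards Sertoli cells, the somatic cells that surround germ cells in the testis. The ligand genes were Bmp2, Bmp4, Bmp5, Bmp6, Bmp7 and Gdf6, and the antagonist or modulator genes were Nog, Chrd, Grem1 and Bmper. Each of the 10 symbols matched 1 Ensembl identifier among the 48795 genes of the deposited tables. All 10 passed the filter on low counts, which 20839 genes passed in total.

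BMPs are secreted dimers of the TGF-beta superfamily that bind pairs of type I and type II receptor kinases, which phosphorylate the transcription factors SMAD1, SMAD5 and SMAD9. In the gastrulating embryo, graded BMP signaling patterns the mesoderm along the axis from midline to lateral plate, and secreted antagonists such as Noggin and Chordin, made at the midline, bind the ligands and keep them from their receptors. Intermediate mesoderm, from which kidney and gonad arise, forms between these regions. Recombinant BMP4 was added to the media of the mesoderm stages as protein, so the reads measured the cells' own mRNA and not the added ligand.

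All cells came from 1 clone of XY mouse embryonic stem cells (clone 7, from an F1 of C57BL/6 x CBA) that carried a Tesco-CFP reporter, which marks Sertoli cells through an enhancer of Sox9, and the R26-rtTA transgene, so that no second clone tests whether a level belongs to the stage or to the clone. ESC were the undifferentiated cells. EpiSC were epiblast-like cells after 60 h with bFGF at 12 ng/ml, Activin A at 20 ng/ml and 1% KSR (knockout serum replacement), and M were early mesoderm cells after a further 36 h in 20 ng/ml bFGF, 10 ng/ml BMP4 and 10 µM of the PI3-kinase inhibitor LY294002. IM1 to IM5 were 5 media for intermediate mesoderm, each applied for 3.5 days with 5 ng/ml bFGF and 20 ng/ml BMP4. All but IM1 also held retinoic acid (RA, 100 nM). IM2 and IM5 contained Activin A at 10 ng/ml, and both IM4 and IM5 contained CHIR99021 at 0.3 µM, a GSK3 inhibitor that activates canonical Wnt signaling. The iSLC (induced Sertoli-like cells) were IM3 cells infected for 24 h with lentiviruses carrying doxycycline-inducible Nr5a1 and Dmrt1, grown in Sertoli medium with 2 µg/ml doxycycline, and sorted as CFP-positive 4 days after doxycycline was added. No other group was sorted. Each of the 9 groups had 3 libraries.

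The 250 bases upstream of the RefSeq start of 4 members are shown because Bmp4, Bmp5 and Bmper had the 3 largest rises of the 10 genes at the mesoderm step and Chrd was the only one that fell there. They are from RefSeq's GRCm38.p6 annotation, on the coding strand and read 5′ to 3′, and 6 of the 10 members matched an entry of the promoter table used. Capitals mark matches, on either strand, to 7 short motifs: the GC-rich BMP response element core GGCGCC, the T-box core AGGTGTGA, the retinoic acid receptor half-site core AGGTCA, the TCF/LEF core CTTTGAT, the TATA box TATAAA, the GC box GGGCGG and CCAAT.
Bmp4: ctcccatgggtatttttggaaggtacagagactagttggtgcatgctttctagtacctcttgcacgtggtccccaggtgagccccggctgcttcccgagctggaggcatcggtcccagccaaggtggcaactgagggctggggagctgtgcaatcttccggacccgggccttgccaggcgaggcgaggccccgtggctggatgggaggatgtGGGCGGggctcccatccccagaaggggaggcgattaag
Bmp5: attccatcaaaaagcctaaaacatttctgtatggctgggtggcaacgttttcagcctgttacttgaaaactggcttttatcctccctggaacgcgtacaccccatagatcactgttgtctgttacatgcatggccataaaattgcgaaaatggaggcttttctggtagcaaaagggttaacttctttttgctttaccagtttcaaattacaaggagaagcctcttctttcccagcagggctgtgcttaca
Bmper: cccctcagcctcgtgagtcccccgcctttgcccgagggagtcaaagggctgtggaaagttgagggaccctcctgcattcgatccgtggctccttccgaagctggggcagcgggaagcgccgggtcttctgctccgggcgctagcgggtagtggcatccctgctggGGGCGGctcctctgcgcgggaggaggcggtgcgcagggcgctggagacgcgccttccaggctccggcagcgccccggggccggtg
Chrd: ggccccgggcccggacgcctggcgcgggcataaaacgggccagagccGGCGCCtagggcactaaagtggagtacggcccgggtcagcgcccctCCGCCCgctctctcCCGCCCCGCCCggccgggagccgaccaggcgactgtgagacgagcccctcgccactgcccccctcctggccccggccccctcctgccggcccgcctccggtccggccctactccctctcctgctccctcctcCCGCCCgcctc
The Bmp4 window lies at chr14:46390670-46390919 on the minus strand with 63.2% GC, and its only match was a GC box 38 bases before the start. The Bmper window lies at chr9:23222826-23223075 on the plus strand with 71.6% GC and also held 1 GC box. The Bmp5 window, at chr9:75775115-75775364 on the plus strand, had 42.8% GC and no match to the 7 motifs, which says only that those letters are not in this window. The Chrd window, at chr16:20732877-20733126 on the plus strand, was the most GC-rich of the 4 at 78.0% and held 1 BMP response element core and 4 GC boxes. Among 32851 windows of the same length, 32.7% held the GC box, 9.59% the BMP response element core, 33.8% CCAAT, 14.0% the retinoic acid receptor half-site core, 12.4% the TATA box, 3.21% the TCF/LEF core and 1.12% the T-box core. A match of this kind is a description of the letters, not of a bound site.

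The libraries held 35923040 to 84876603 estimated counts. Markers of embryonic stem cells, epiblast and early mesoderm were highest in the groups named for them, and the summed level of 5 intermediate mesoderm markers was 139 to 167 TPM (a length-corrected measure of transcript abundance scaled to a fixed total per library) in IM3, 112 to 128 in IM4 and 124 to 128 in iSLC, against 13.1 to 36.6 in IM1, IM2 and IM5 and 52.4 to 64.0 in M. Most of that sum in IM3 was Wt1, at 138 to 165 TPM. Osr1 went from 0.18 to 0.23 TPM in M to between 0.8 and 4.83 in IM1 to IM5, whereas Pax2 and Pax8 stayed at or below 0.24 and 0.37 TPM there. Lhx1 made up most of the sum in M, at 49.8 to 61.2 TPM. It was lower in all IM groups, at 0.35 to 3.95 TPM. In iSLC, Nr5a1 reached 87.2 to 100 TPM, against at most 0.15 TPM in the other groups, and Dmrt1 192 to 228 TPM, against 19.8 to 23.2 in ESC, 8.69 to 9.06 in EpiSC and at most 1.19 in the others. Of 5 Sertoli markers, Cldn11 was highest in iSLC at 6.78 to 7.24 TPM, against at most 1.38 elsewhere, and Fgf9 at 1.06 to 1.22, against at most 1.01. Sox9 was lower in iSLC, at 23.3 to 26.5 TPM, than in IM1 to IM5, at 33.3 to 59.7, Dhh lay at 1.53 to 2.38 TPM in iSLC within the 0.46 to 2.84 of the IM groups, and Amh lay at 0.47 to 0.61 TPM within their 0.32 to 1.19. Transcripts of other cell types varied between the groups. The summed TPM of 6 red blood cell genes was 21.3 to 74.4 in IM3 and 30.8 to 72.1 in IM4 but 1.62 to 4.54 in IM1, IM2 and IM5, and the sum of 4 heart muscle genes was 229 to 456 in IM3, 114 to 158 in IM1, IM2 and IM4, and 50.8 to 60.5 in IM5. In these bulk samples, fewer cells of a type and less RNA per cell cannot be told apart. The labels number the libraries without naming separate cultures, so that the p-values measure the spread between these libraries only.

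**Figure D1:**
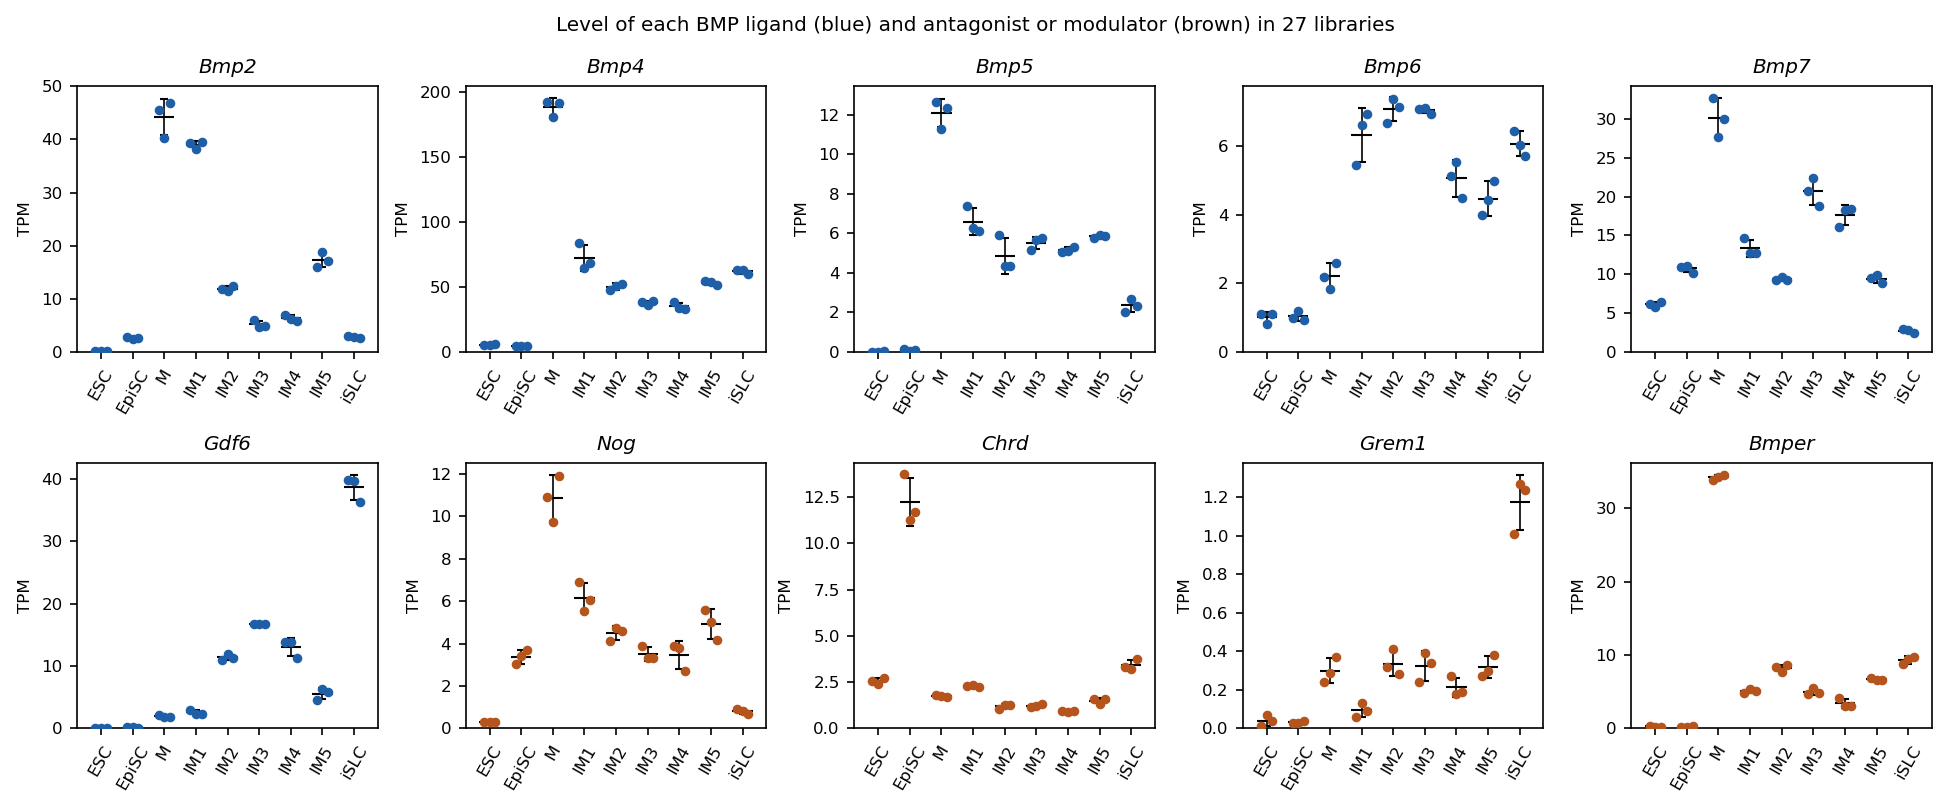
Deposited TPM of each of the 10 genes (one panel a gene, linear axes from 0) in the 9 groups; points are single libraries and bars the mean and SD of 3. Bmp2, Bmp4, Bmp5, Bmp7, Nog and Bmper had their highest mean in M, Chrd in EpiSC, Bmp6 in IM2, and Gdf6 and Grem1 in iSLC.

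Bmp4 (chr14:46383520-46390669, minus strand, GRCm38), a ligand that the embryo needs for mesoderm formation, was the most abundant of the 10 genes from M onwards, as the plot of levels by group shows. Its TPM was 4.9, 5.63 and 6.24 in ESC and 4.23, 4.81 and 4.62 in EpiSC, and then 192.9, 180.83 and 192.19 in M. The M libraries lay far above all others: IM1 followed at 83.65, 64.96 and 68.54 TPM. In iSLC it was 63.39, 63.15 and 59.99 TPM, in IM5 54.27, 53.76 and 51.23, in IM2 47.72, 50.41 and 52.63, in IM3 38.29, 36.46 and 39.11, and in IM4 38.37, 33.92 and 33.12. The ranges of IM5 and IM2, and of IM3 and IM4, overlapped, and the other neighbours in this order did not. Of its exon bases, 3.96% overlap Gm15217 on the other strand, which lay at 0 to 0.92 TPM.

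Bmp2 (chr2:133552159-133562885, plus strand), the closest relative of Bmp4 among the ligands, was nearly silent in ESC at 0.13, 0.15 and 0.2 TPM. It stood at 2.73, 2.46 and 2.52 TPM in EpiSC and at 45.51, 40.31 and 46.87 in M. Unlike Bmp4, it was almost as high in IM1, with 39.27, 38.22 and 39.55 TPM, as in M. The 4 media with RA were all lower, with 16.01, 18.88 and 17.13 TPM in IM5, 11.85, 11.45 and 12.36 in IM2, 7.01, 6.23 and 5.89 in IM4, and 5.94, 4.7 and 4.88 in IM3. Only IM4 and IM3, and iSLC (2.96, 2.88 and 2.57 TPM) and EpiSC, overlapped as neighbours. The order within the RA media thus placed both media with Activin A above both without.

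Bmp5, Bmp6 and Bmp7 form another subgroup of closely related ligands, and the 3 genes had different courses. Bmp5 (chr9:75775364-75900310, plus strand), known for its part in skeletal development, was at 0, 0 and 0.03 TPM in ESC and at 0.05 to 0.13 in EpiSC. In M it reached 12.66, 11.28 and 12.34 TPM, in IM1 7.39, 6.27 and 6.11, and in the RA media 4.33 to 5.9, where IM3 overlapped with IM4 and IM4 with IM2. It was lower again in iSLC, at 2.03, 2.7 and 2.31 TPM. Although 46.66% of its exon bases overlap Gm26903 on the other strand, that gene lay at 0 to 0.08 TPM.

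Bmp6 (chr13:38345107-38500302, plus strand), known as the ligand that sets hepcidin and so iron balance in the adult, was, with Gdf6, one of the ligand genes higher in every IM library than in M. Its TPM was 0.82 to 1.1 in ESC and 0.94 to 1.18 in EpiSC, ranges that overlapped, and 2.18, 1.82 and 2.59 in M. In IM2 it was 6.68, 7.37 and 7.14, in IM3 7.08, 7.1 and 6.93, in IM1 5.43, 6.62 and 6.92, in iSLC 6.43, 6.04 and 5.7, in IM4 5.13, 5.54 and 4.49, and in IM5 3.98, 4.41 and 4.99. IM2 overlapped with IM3, IM1 with iSLC, and IM4 with IM5. These values are uncertain, because 5.74% of the exon bases of Bmp6 overlap Txndc5 on the other strand, which lay at 81.6 to 428 TPM, and the sources do not state whether the counting used strand.

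Bmp7 (chr2:172868012-172940321, minus strand), which the developing kidney needs to keep its nephron progenitors, had the highest mean of the 6 ligand genes in ESC, at 6.18, 5.73 and 6.44 TPM, and in EpiSC, at 10.99, 11.09 and 10.22. Its range in ESC overlapped that of Bmp4, at 4.9 to 6.24 TPM. Bmp7 was at 32.75, 27.68 and 29.97 TPM in M. Among the IM groups its levels formed a clear order. The media with RA but no Activin A were highest, with 20.78, 22.43 and 18.85 TPM in IM3 and 16.13, 18.23 and 18.44 in IM4, then IM1 with 14.61, 12.69 and 12.79, and the media with Activin A were lowest, with 9.49, 9.95 and 8.81 in IM5 and 9.23, 9.59 and 9.22 in IM2. IM5 and IM2 overlapped. The lowest level of all groups was in iSLC, at 2.92, 2.84 and 2.46 TPM.

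Gdf6 (chr4:9844372-9862345, plus strand), a ligand known for its part in joint and eye development, was the only one of the 6 ligand genes with its highest level in iSLC. It was at 0.06 to 0.1 TPM in ESC and 0.13 to 0.18 in EpiSC, then at 2.14, 1.8 and 1.77 in M and 2.98, 2.35 and 2.33 in IM1. Every medium with RA was above IM1. IM3 had 16.7, 16.78 and 16.72 TPM, IM4 13.82, 13.84 and 11.33, IM2 10.98, 11.93 and 11.34, and IM5 4.54, 6.33 and 5.8. IM4 and IM2 overlapped as neighbours. In iSLC the level was 39.8, 39.74 and 36.37 TPM, above every other library.

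Of the antagonists, Nog (chr11:89300638-89302332, minus strand, 1 exon) encodes Noggin, which covers the receptor-binding faces of BMP dimers. Its TPM was 0.32, 0.31 and 0.32 in ESC, 3.02, 3.4 and 3.68 in EpiSC, and 10.92, 9.73 and 11.92 in M. It was lower in each IM group than in M, with 6.88, 5.52 and 6.07 TPM in IM1 and 2.72 to 5.56 in IM2 to IM5. Neighbours overlapped throughout the IM groups, except IM2 and IM3, and IM4 also overlapped with EpiSC. In iSLC the level was 0.91, 0.8 and 0.68 TPM, above ESC only.

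Chrd (chr16:20733127-20742384, plus strand) encodes Chordin, a large cysteine-rich protein that holds BMP dimers until a tolloid protease cleaves it, and was the only one of the 10 genes with its peak in EpiSC. It was at 2.54, 2.37 and 2.71 TPM in ESC and at 13.72, 11.28 and 11.7 in EpiSC, but at 1.81, 1.73 and 1.72 in M. IM1 had 2.31, 2.36 and 2.22 TPM and IM2 to IM5 0.9 to 1.61, where only IM3 and IM2 overlapped as neighbours, and iSLC had 3.32, 3.18 and 3.75. Of its exon bases, 3.82% overlap Thpo on the other strand, which lay at 3.21 to 4.36 TPM in ESC and EpiSC and at 0.53 to 1.95 in the other groups, and whose part in the Chrd values was not tested.

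Bmper (chr9:23223076-23485200, plus strand) encodes a Chordin-like protein that can inhibit or promote BMP signaling depending on context. It was nearly silent in ESC (0.29, 0.25 and 0.23 TPM) and EpiSC (0.22, 0.22 and 0.27), whose ranges overlapped, and reached 33.87, 34.21 and 34.51 TPM in M. That made it the most abundant of the 4 antagonist or modulator genes at the mesoderm stage. It was then 8.77, 9.47 and 9.72 TPM in iSLC, 8.31, 7.67 and 8.6 in IM2, 6.84, 6.65 and 6.63 in IM5, 4.83, 5.35 and 5.14 in IM1, 4.68, 5.48 and 4.83 in IM3, and 4.12, 3.09 and 3.08 in IM4. Only IM1 and IM3 overlapped among these. Grem1 (chr2:113746164-113758646, minus strand), which encodes Gremlin 1, an antagonist best known from limb outgrowth, stayed at or below 0.41 TPM in all groups but iSLC, where it was 1.01, 1.27 and 1.24 TPM.

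**Figure D2:**
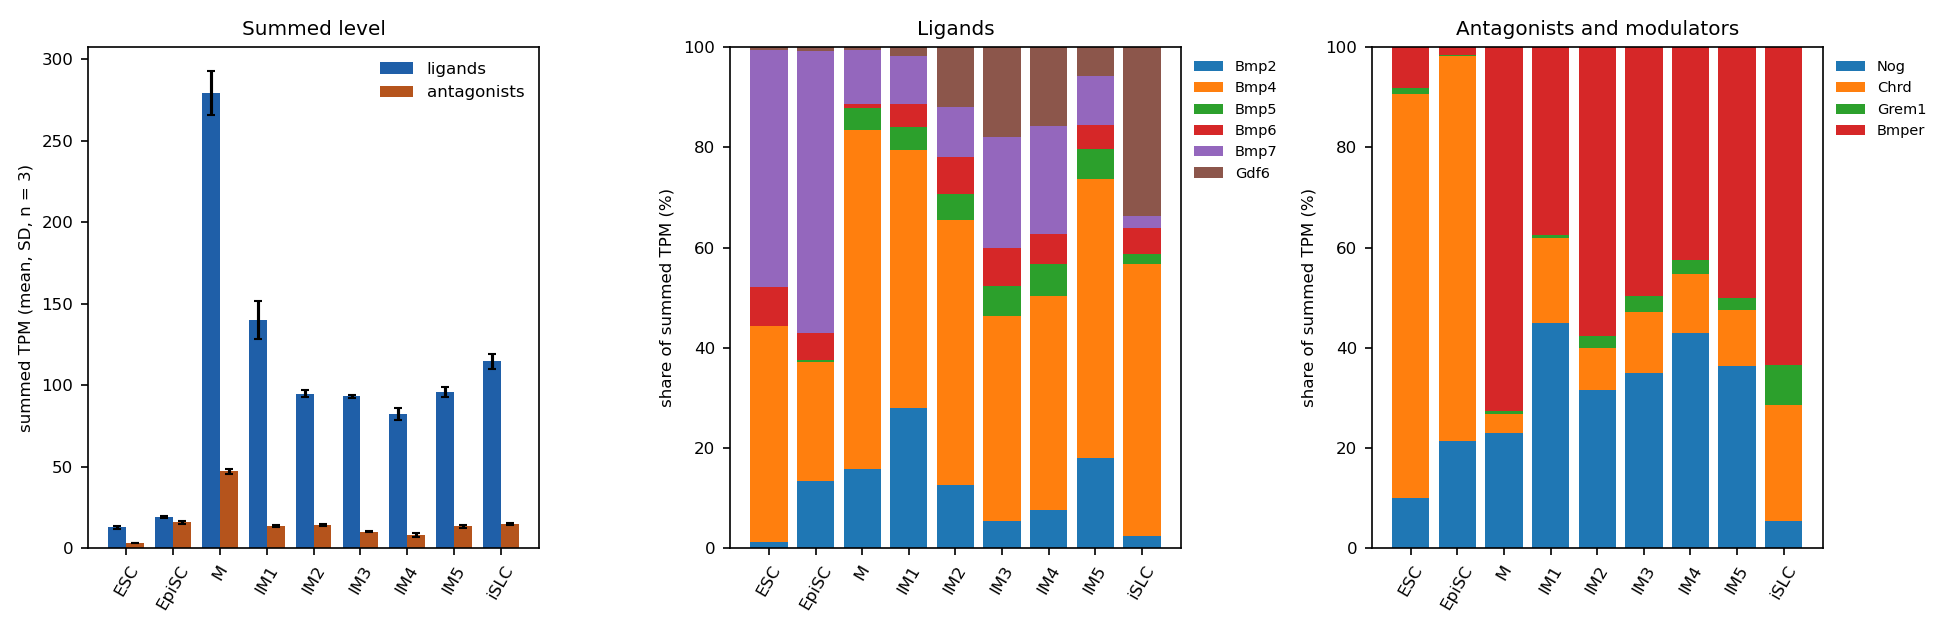
Summed TPM of the 6 ligand genes and of the 4 antagonist or modulator genes in the 9 groups (left, mean and SD of 3 libraries), and the mean share in percent that each gene took of its sum (stacked bars). The ligand sum was highest in M at 279.2 TPM, and the leading gene of the 4 antagonists or modulators changed from Chrd in ESC and EpiSC to Bmper in M.

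The plot of summed levels gives the makeup within the 6 ligand genes and within the 4 antagonist or modulator genes. The 6 ligand genes together had 12.96 ± 0.984 TPM (SD, n = 3) in ESC and 19.18 ± 0.622 in EpiSC, against 279.2 ± 13.5 in M. The sum was then 140.2 ± 11.6 in IM1, 82.32 ± 3.49 to 95.7 ± 3.05 in the 4 media with RA, and 114.8 ± 4.64 in iSLC. The leading gene of these 6 changed with the stage. Outside the 6, the ligand gene Gdf3 had a mean of 108 TPM in ESC and 72.4 in EpiSC, and Gdf10 181 in iSLC. Bmp7 made up 56.12% of the ligand sum in EpiSC and Bmp4 23.75%, whereas in M Bmp4 made up 67.59% and Bmp7 10.78%. In IM1, Bmp4 (51.47%) and Bmp2 (27.93%) led, in IM3 Bmp4 (40.77%), Bmp7 (22.21%) and Gdf6 (17.97%), and in iSLC Bmp4 (54.19%) and Gdf6 (33.66%).

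The 4 antagonist or modulator genes together had 3.153 ± 0.15 TPM in ESC, 15.87 ± 1.04 in EpiSC and 47.11 ± 1.3 in M, and 8.05 ± 1.14 to 14.71 ± 0.69 in the later groups. The mean ligand sum was above the mean antagonist sum in all 9 groups, by the least in EpiSC. Chrd made up 80.5% of the antagonist sum in ESC and 76.96% in EpiSC but 3.724% in M, where Bmper made up 72.62%. In iSLC, Bmper took 63.36% and Chrd 23.22%. Noggin mRNA had its largest shares in IM1 (45.03%) and IM4 (43.02%). These sums are of mRNA and say nothing of protein or binding strength.

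**Figure D3:**
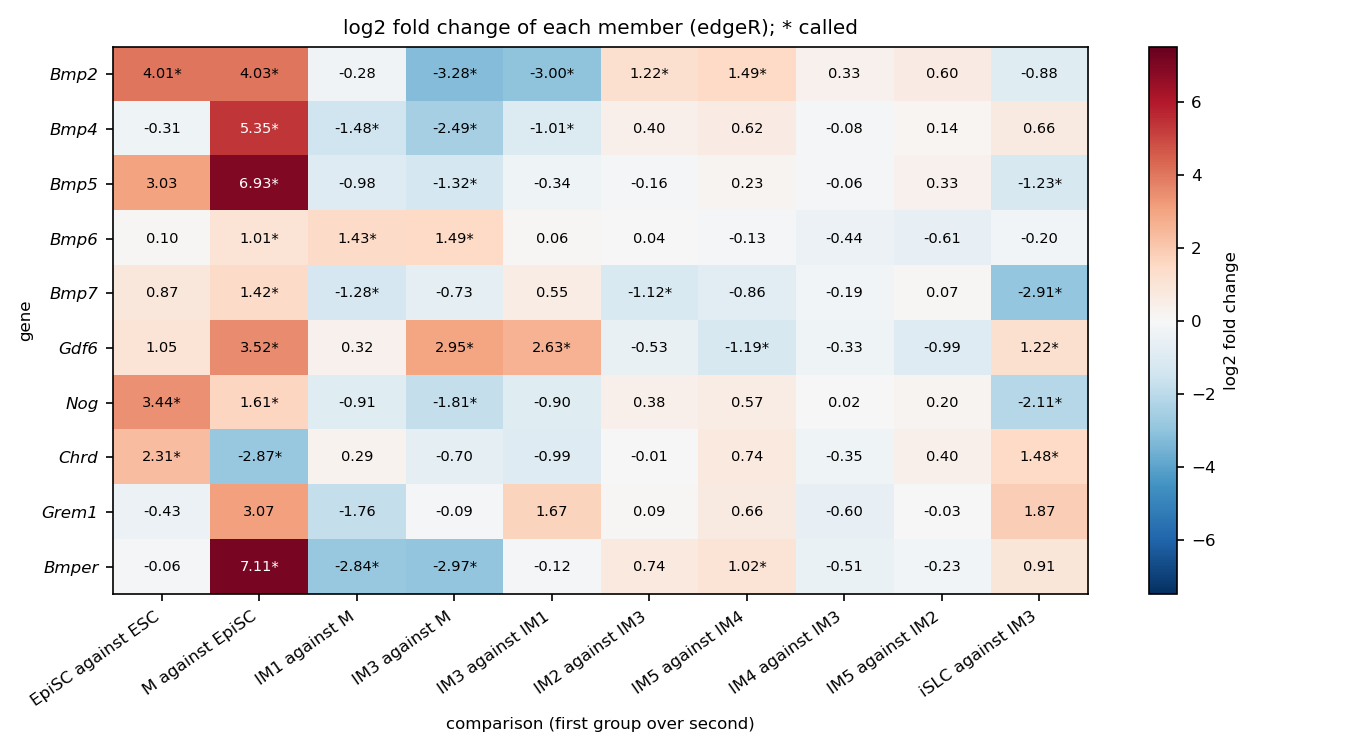
Log2 fold change of each of the 10 genes (rows) in 10 comparisons (columns, first group over second) from the edgeR fit across all genes, printed in each cell and as its colour; an asterisk marks a called difference. The step from EpiSC to M had 9 called genes, and both comparisons of CHIR99021 had 0.

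Whether these differences exceeded the spread between libraries was tested with edgeR's quasi-likelihood test on the estimated counts of all genes, with Benjamini-Hochberg adjusted p-values over all 20839. To be called, a difference needed an adjusted p no higher than 0.01, a 2-fold change or more, and 100 or more normalized counts in the mean of all libraries and in that of 1 compared group or more. Each fold change below is given as log2 with its SE. In the test over all 9 groups, 10 of the 10 genes passed at the threshold of 0.05, as did 96.4% of all genes, so this says nothing particular of the BMP genes. The comparisons of consecutive steps share their groups and are not independent of each other.

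At the step from ESC to EpiSC, 1 ligand and both classical antagonists rose: 3 of the 10 genes were called, beside 8.07% of all genes tested (3.75% higher, 4.32% lower). Bmp2 rose by 4.01 ± 0.13 (adjusted p = 7.24e-19), Nog by 3.44 ± 0.19 (adjusted p = 3.93e-14) and Chrd by 2.31 ± 0.096 (adjusted p = 5.9e-17). The libraries of the groups did not overlap for any of the 3, nor for 62.0% of all genes. Bmp7 was 0.87 ± 0.08 higher (adjusted p = 6.97e-10), short of the fold required, and Bmp4 differed by -0.31 ± 0.11 (adjusted p = 0.0136), which did not pass. Bmp5 and Gdf6 did not reach the count minimum, with 0, 0 and 4 estimated counts of Bmp5 in ESC against 21, 7 and 18 in EpiSC. Markers of other tissues moved at the same step. From ESC to EpiSC the summed TPM of 4 node and notochord genes was 8.89 to 9.8 and then 44.9 to 52.0, that of the early mesoderm genes 7.91 to 9.11 and 369 to 392, that of 3 definitive endoderm genes 2.66 to 4.09 and 13.4 to 14.9, and that of the red blood cell genes 11.7 to 91.0 and 1.57 to 2.31. Their part in these differences was not tested.

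At the step to early mesoderm, 8 of the 10 genes rose and 1 fell, where 14.5% of all genes were called, 6.79% higher and 7.72% lower. All 6 ligand genes were among those that rose, with a median log2 fold change of 3.78 against -0.06 over all genes. Bmp5 changed by 6.93 ± 0.2 (adjusted p = 7.42e-21), Bmp4 by 5.35 ± 0.098 (adjusted p = 9.77e-25), Bmp2 by 4.03 ± 0.074 (adjusted p = 9.77e-25) and Gdf6 by 3.52 ± 0.17 (adjusted p = 3.75e-16). The changes of the other 2 ligands were smaller, at 1.42 ± 0.076 for Bmp7 (adjusted p = 4.37e-15) and 1.01 ± 0.13 for Bmp6 (adjusted p = 1.05e-07). The Bmp6 call was lost when EpiSC replicate 1, EpiSC replicate 3 or M replicate 3 was left out, with values between 0.9 and 1.11. The antagonist genes moved in both directions. Bmper rose by 7.11 ± 0.12 (adjusted p = 1.32e-25) and Nog by 1.61 ± 0.13 (adjusted p = 2.4e-11), while Chrd fell by 2.87 ± 0.099 (adjusted p = 4.11e-19). Grem1 was 3.07 ± 0.36 higher (adjusted p = 3.17e-08) but below the count minimum. For all 10 genes the TPM ranges of M and EpiSC did not overlap, as for 68.8% of all genes. The summed TPM of 5 early mesoderm markers was 369 to 392 in EpiSC and 937 to 1030 in M, that of the red blood cell genes was 1.57 to 2.31 and 42.4 to 80.0, and that of the definitive endoderm genes 13.4 to 14.9 and 46.1 to 50.2. The node and notochord sum was lower in M, as Chrd was, at 5.05 to 6.06 TPM against 44.9 to 52.0 in EpiSC. Their part in these differences was not tested.

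From M to IM1, the medium with bFGF and BMP4 only, 4 of the 10 genes were called, beside 15.7% of all genes (9.72% higher, 5.94% lower). Bmp4 fell by 1.48 ± 0.078 (adjusted p = 3.09e-15), Bmp7 by 1.28 ± 0.075 (adjusted p = 3.12e-14) and Bmper by 2.84 ± 0.083 (adjusted p = 1.04e-20), whereas Bmp6 rose by 1.43 ± 0.11 (adjusted p = 1.27e-11). Bmp2 was nearly level at -0.28, and Nog (-0.91) and Bmp5 (-0.98) stayed short of the required fold. The Bmp5 difference passed it when IM1 replicate 1 was left out, and the Nog difference passed it with an offset for GC content. From M to IM3, with RA, 7 of the 10 genes were called, beside 14.9% of all genes (9.26% higher, 5.66% lower). Bmp2 fell by 3.28 ± 0.072 (adjusted p = 2.39e-23), Bmper by 2.97 ± 0.086 (adjusted p = 6.67e-21), Bmp4 by 2.49 ± 0.083 (adjusted p = 1.37e-19), Nog by 1.81 ± 0.14 (adjusted p = 4.78e-12) and Bmp5 by 1.32 ± 0.13 (adjusted p = 5.25e-10). Gdf6 rose by 2.95 ± 0.1 (adjusted p = 3.44e-19) and Bmp6 by 1.49 ± 0.12 (adjusted p = 8.45e-12). The early mesoderm sum was 937 to 1030 TPM in M, 9.07 to 11.2 in IM1 and 1.85 to 2.44 in IM3, the heart muscle sum 8.51 to 11 in M, 125 to 158 in IM1 and 229 to 456 in IM3, and the endothelial sum 51.9 to 64.6 in M, 120 to 132 in IM1 and 62.4 to 73.8 in IM3. Their part in the differences from M was not tested.

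IM3 against IM1 tested the addition of RA to a medium that otherwise held the same bFGF and BMP4. With RA, 3 of the 10 genes were called, beside 6.34% of all genes (2.62% higher, 3.72% lower). Bmp2 fell by 3.00 ± 0.071 (adjusted p = 2.69e-21), from 39.01 to 5.173 TPM in the mean, and Gdf6 rose by 2.63 ± 0.097 (adjusted p = 1.1e-17), from 2.553 to 16.73 TPM. Bmp4 fell by 1.01 ± 0.08 (adjusted p = 5.83e-11), a call that was lost with an offset for GC content (-0.98) and when IM1 replicate 1 or IM3 replicate 2 was left out, with values between -1.07 and -0.89. Chrd differed by -0.99 ± 0.11 (adjusted p = 2.16e-08), just short of the fold, and was called when IM1 replicate 3 or IM3 replicate 3 was left out. DESeq2 called 4 of the 10 genes, Chrd among them at -1.01, and with an offset for GC content the Chrd difference was -0.65. Bmp7 (0.55) and Nog (-0.9) also passed the p threshold but not the fold, and Grem1 (1.67) did not reach the count minimum. The summed TPM of 4 endothelial genes was 120 to 132 in IM1 and 62.4 to 73.8 in IM3, and the heart muscle and red blood cell sums differed as given above. Their part was not tested.

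**Figure D4:**
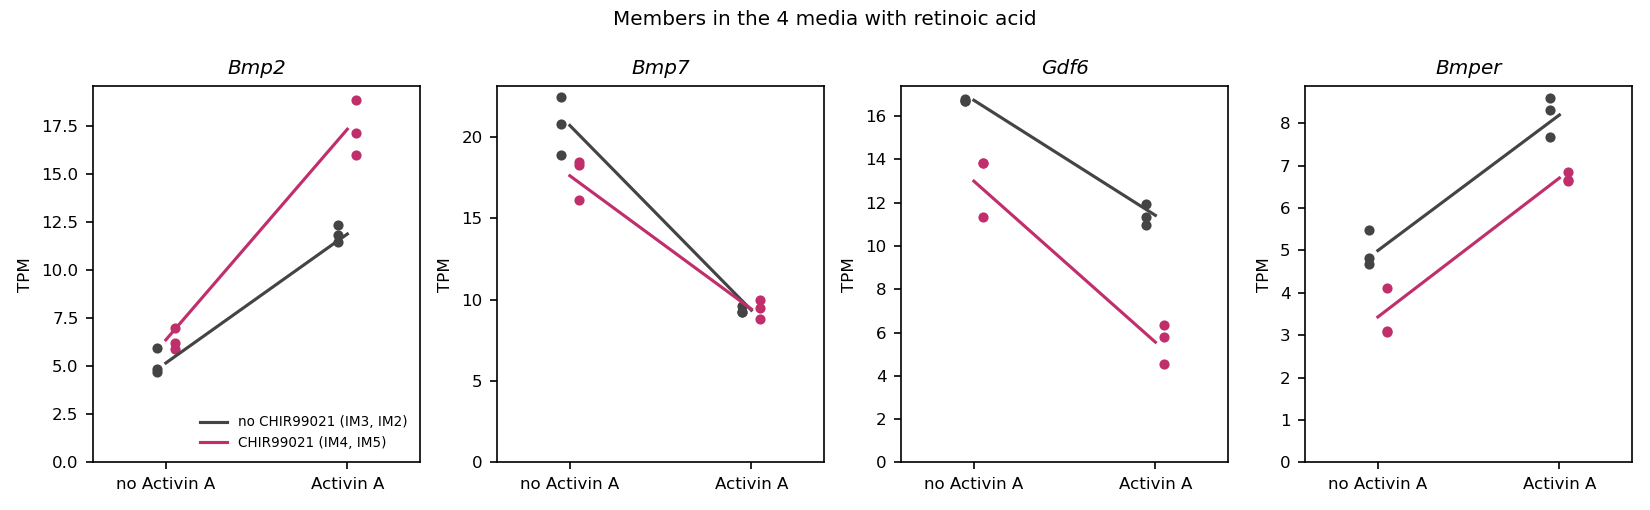
TPM of Bmp2, Bmp7, Gdf6 and Bmper in the media with RA, without and with Activin A (horizontal axis), in grey without CHIR99021 (IM3, IM2) and in red with it (IM4, IM5); points are libraries and lines join the means. In each colour the 3 libraries with Activin A lay above those without it for Bmp2 and Bmper, and below them for Bmp7 and Gdf6.

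Activin A was tested on top of RA, bFGF and BMP4, once without CHIR99021 (IM2 against IM3) and once with it (IM5 against IM4), in pairs of groups that share no library. Bmp2 was the gene that rose in both, by 1.22 ± 0.071 (adjusted p = 3.59e-13) without and 1.49 ± 0.068 (adjusted p = 2.56e-15) with CHIR99021. It was 1 of 2 called genes of the 10 in the former, beside 3.8% of all genes (2.46% higher, 1.34% lower), and 1 of 3 in the latter, beside 4.09% (2.63% higher, 1.46% lower). Bmp7 fell by 1.12 ± 0.078 without CHIR99021 (adjusted p = 1.06e-11) and differed by -0.86 ± 0.077 with it (adjusted p = 9.57e-10), short of the fold, though it was called there at -1.08 with an offset for GC content. Gdf6 differed by -0.53 (adjusted p = 2.38e-05) without CHIR99021 and fell by 1.19 ± 0.091 (adjusted p = 5.58e-11) with it. Bmper was 0.74 higher without CHIR99021 (adjusted p = 8.72e-08) and rose by 1.02 ± 0.087 with it (adjusted p = 3.42e-10), a call lost without IM4 replicate 2, IM4 replicate 3 or IM5 replicate 1 (0.96 to 1.16). Bmp4 differed by 0.4 and 0.62. Within each background, the TPM of the libraries with and without Activin A did not overlap for Bmp2, Bmp4, Bmp7, Gdf6, Nog or Bmper. The plot of the Activin A media shows Bmp2, Bmp7, Gdf6 and Bmper. With CHIR99021, Bmp5 and Chrd did not overlap either. Of the 10 genes, 4 overlapped without CHIR99021 and 2 with it. Over all genes, 44.2% did not overlap without CHIR99021 and 48.6% with it.

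Whether the Activin A difference depended on CHIR99021 was tested as an interaction. None of the 10 genes was called by edgeR, beside 0.0336% of all genes (0.0096% higher, 0.024% lower), with 6 at an unadjusted p under 0.05, and DESeq2 called 0. Gdf6 had an interaction of -0.66 ± 0.13 (adjusted p = 0.0109) and Chrd of 0.75 ± 0.16 (adjusted p = 0.0286). Among the media with RA, red blood cell transcripts were high in both groups without Activin A and low in both with it. Their sum was also low in IM1, which held no Activin A, at 3.06 to 4.54 TPM. Hbb-bs, an adult beta-globin gene, was at 4.94 to 43.4 TPM over IM3, IM4, ESC and M. It was at 0 in every library of EpiSC, IM5 and iSLC, and at most 0.46 TPM in IM1 and IM2. High levels thus also occurred in undifferentiated ESC. The definitive endoderm sum was 6.62 to 7.36 TPM in IM3 and 22.7 to 25.9 in IM2, and 6.7 to 8.87 in IM4 and 29.8 to 32.4 in IM5. The early mesoderm sum was 1.85 to 2.44 in IM3, 24.3 to 25.4 in IM2, 1.79 to 2.12 in IM4 and 21.6 to 22.7 in IM5. The sum of 5 genital ridge genes was lower with Activin A, at 177 to 182 in IM2 against 495 to 533 in IM3 and at 118 to 121 in IM5 against 361 to 402 in IM4. The part of these splits in the Activin A differences was not tested.

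The addition of CHIR99021 itself gave no called BMP gene. For IM4 against IM3 the count was 0 of 10, beside 0.101% of all genes (0% higher, 0.101% lower), with 6 at an unadjusted p under 0.05, and DESeq2 called 0. Bmper was the 1 gene that passed the p threshold, at -0.51 ± 0.09 (adjusted p = 0.00148). For IM5 against IM2 edgeR also called 0, beside 0.235% of all genes (0.0432% higher, 0.192% lower), with 6 at an unadjusted p under 0.05, and DESeq2 called 0. Gdf6 differed by -0.99 ± 0.091 (adjusted p = 6.91e-08), at the edge of the required fold, which it passed when IM2 replicate 1, IM5 replicate 2 or IM5 replicate 3 was left out and with an offset for GC content. Bmp2 (0.6) and Bmp6 (-0.61) passed the p threshold with smaller differences.

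From IM3 to iSLC, 5 of the 10 genes were called, beside 19.2% of all genes (10.3% higher, 8.92% lower). Among the ligands, Gdf6 rose by 1.22 ± 0.086 (adjusted p = 1.03e-12), while Bmp7 fell by 2.91 ± 0.087 (adjusted p = 1.16e-20) and Bmp5 by 1.23 ± 0.13 (adjusted p = 6.02e-09). Bmp4 was 0.66 higher and Bmp2 differed by -0.88, both short of the fold, and Bmp6 by -0.2. Among the antagonists, Nog fell by 2.11 ± 0.17 (adjusted p = 1.08e-11) and Chrd rose by 1.48 ± 0.11 (adjusted p = 2.02e-12). Bmper was 0.91 ± 0.085 higher (adjusted p = 2.43e-10), and Grem1 1.87 ± 0.27 higher (adjusted p = 5.86e-07) but below the count minimum. The TPM ranges of the 2 groups did not overlap for any of the 10 genes, nor for 73.7% of all genes. With an offset for GC content the calls of Bmp5 (-0.89) and Chrd (0.91) were lost. Relative to the mean of all libraries, the median of the most GC-rich genes minus that of the most GC-poor genes was 0.527 to 0.65 log2 in the iSLC libraries and -0.465 to -0.0838 in those of IM3. This trend was not particular to iSLC. It was -0.527 to -0.354 in M, -0.437 to -0.188 in IM4 and -0.373 to -0.245 in ESC. In EpiSC it was -0.144 to 0.0264, in IM1 0.204 to 0.34, in IM2 -0.0504 to 0.292 and in IM5 0.225 to 0.606. Comparisons of ESC, M, IM3 or IM4 with the other groups thus also set unlike trends side by side. Sorting, medium, virus and time all changed together between IM3 and iSLC and cannot be told apart. The endothelial sum was 62.4 to 73.8 TPM in IM3 and 3.04 to 4.14 in iSLC, and its part was not tested.

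**Figure D5:**
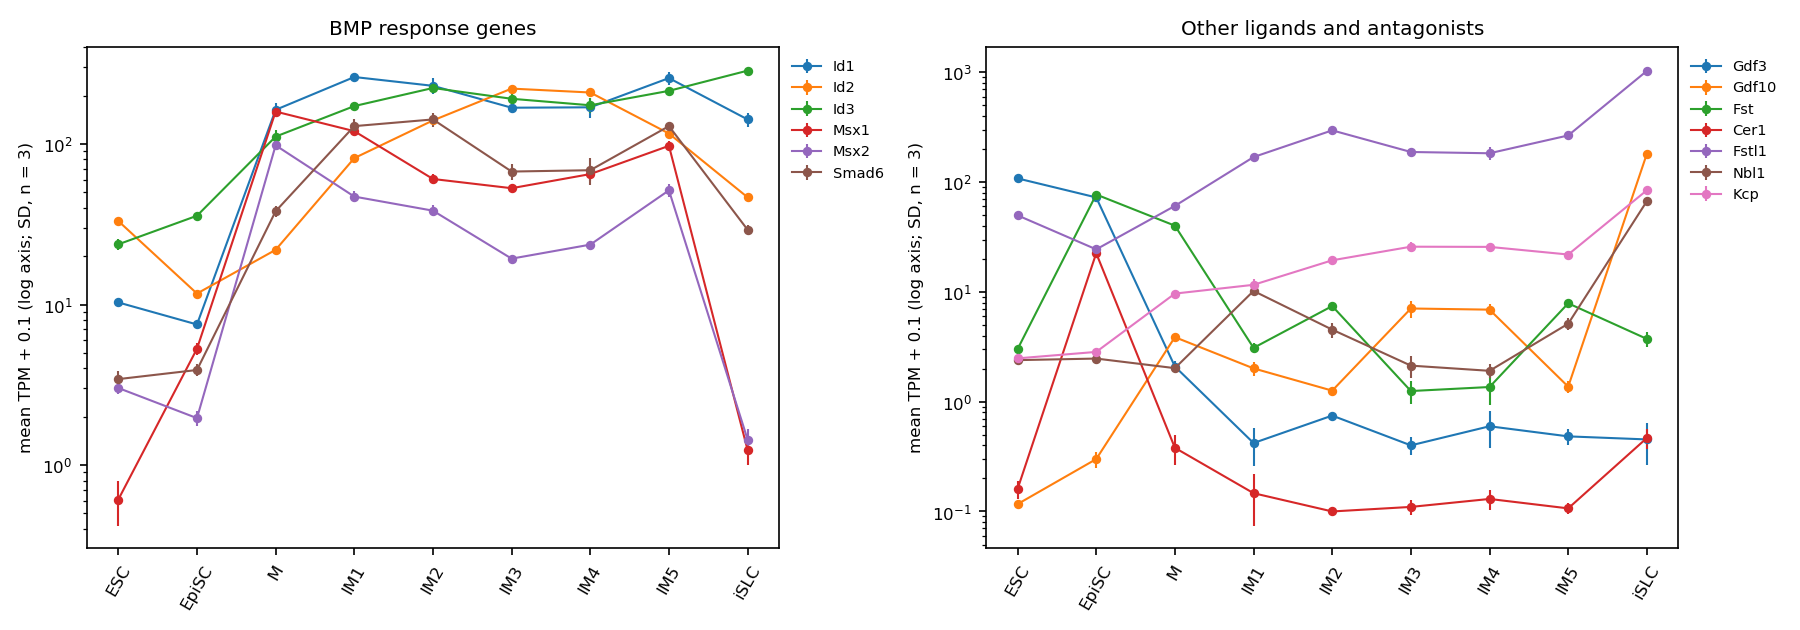
Mean TPM + 0.1 (log axes, SD of 3 libraries) of 6 BMP response genes (left) and of 7 further ligand and antagonist or modulator genes (right) in the 9 groups. Msx1 went from 5.2 TPM in EpiSC to 159 in M and 1.14 in iSLC, and Gdf10 was highest in iSLC at 181.

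The rest of the pathway was described over 61 further genes in 7 lists. At the mesoderm step, the list of BMP response genes had 5 of 8 genes that rose and 0 that fell, with a median log2 fold change of 2.41 against -0.06 over all genes. Msx2 changed by 5.65, Msx1 by 4.87, Id1 by 4.37 and Smad6 by 3.26. Msx1 and Msx2 encode homeodomain factors and Id1 an inhibitor of basic helix-loop-helix factors, and Smad6 encodes an intracellular inhibitor of BMP signaling. In group means, Id1 went from 7.41 TPM in EpiSC to 163 in M and 261 in IM1. The medium of M was also the first of the series with added BMP4, and the parts of added and endogenous ligand cannot be told apart.

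Of 7 receptor genes, 2 rose at that step, the type II receptor genes Acvr2a (1.29) and Bmpr2 (1.21), and of 6 transducer genes 1 rose, Smad1 (1.94). Among 15 tested genes listed as further antagonists, a list that also holds modulators such as Kcp, 4 rose and 3 fell. Bambi, a pseudoreceptor gene, changed by 2.86 and Cer1, a secreted antagonist of the gastrula, by -6.38. Among 10 tested further ligands, Gdf10 rose by 4.17 and Gdf3 and Bmp8b fell by 5.35 and 1.55. Gdf3, which is active in pluripotent cells, had means of 108 TPM in ESC, 72.4 in EpiSC and 1.99 in M. Of 7 genes for processing enzymes, 2 rose, among them the proprotein convertase gene Pcsk5 (5.69), and 2 fell. Of 5 coreceptor genes, 1 fell, Eng (-1.26).

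At the first step, from ESC to EpiSC, 1 further receptor gene fell, Acvrl1 (-1.05), as did 1 processing gene, Pcsk6 (-1.87), and no further ligand, coreceptor or transducer gene was called. Among the further antagonists Cer1 (8.44) and Fst (4.75), which encodes the Activin-binding protein Follistatin, rose, and Fstl1 fell by 1.1. Of the response genes Msx1 rose by 3.28 and Id2 fell by 1.47. From M to IM1, 6 further antagonists rose and 1 fell (median of the 15 tested 1.16, all genes 0). Fst changed by -3.84, and of the 8 response genes 3 rose, among them Id4 (2.22), and 1 fell. From M to IM3, 5 further antagonists rose and 1 fell, with Fst at -5.3, and the response genes split into 2 that rose, led by Id2 (3.15), and 2 that fell, Msx2 (-2.54) and Msx1 (-1.79).

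With RA added (IM3 against IM1), 1 further antagonist rose and 3 fell, Nbl1 (-2.36), Fst (-1.46) and Fstl3 (-1.14). The median of the 15 tested was 0.09, against 0 over all genes. Of the response genes 1 rose and 3 fell. The ligand gene Gdf10 rose by 1.77, 1 receptor and 1 coreceptor gene fell, and 1 processing gene rose and 1 fell. With Activin A, 3 further antagonists rose and 0 fell in each background: Fst by 2.69 without and 2.71 with CHIR99021, Nbl1 by 1.08 and 1.53, and Fstl3 by 1.23 and 1.31. Fst and Fstl3 encode proteins that bind Activin itself. The ligand gene Gdf10 fell by 2.55 and 2.37. Of the response genes, 2 rose in each, Smad6 (1.11) and Msx2 (1.03) without CHIR99021, and Msx2 (1.19) and Id4 (1.17) with it. For CHIR99021 the only call in the 7 lists was Tll1, a tolloid-like protease gene, which fell by 1.02 in IM5 against IM2.

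From IM3 to iSLC, 5 of the 8 response genes fell and 0 rose (median -1.22, all genes 0), while the mean ligand sum was 93.11 TPM in IM3 and 114.8 in iSLC. The IM3 medium held added BMP4, whereas the Sertoli medium, per the study's methods, held EGF, FSH, FGF9, prostaglandin D2, testosterone and Activin A and lists no BMP4, so that added and endogenous ligand cannot be told apart here either. Msx1 fell by 5.5, from a mean of 52.9 TPM to 1.14, Msx2 by 3.82, from 19.2 to 1.34, Id2 by 2.22 and Id4 by 1.25. Id3 went the other way, short of a call, from 170 to 226 TPM in IM3 to 282 to 289 in iSLC. Id1 changed little, from 159 to 181 TPM in IM3 to 132 to 158 in iSLC. Of the further antagonists or modulators 6 rose and 2 fell (median 1.03). Nbl1 changed by 5.03 to a mean of 66.9 TPM, Fstl1 by 2.53 to 1030 TPM and the modulator gene Kcp by 2.05 to 84.2 TPM. Gdf10 changed by 4.73, from 6.96 to 181 TPM, which placed its mean above that of every one of the 6 ligand genes in iSLC. Both coreceptor genes called, Rgma (2.38) and Eng (1.27), rose, as did the protease genes Tll1 (2.52), Pcsk6 (1.77) and Bmp1 (1.74). Smad9 fell by 2.36.

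The course of each gene over the 9 group means of log2(TPM + 1) was set against that of 11480 genes with a mean of at least 10 TPM in some group. Bmper was most like Rftn1 (Pearson r = 0.991) and then like Bmp4 itself (0.967), and the genes most like Bmp4 were Rnf19a (0.981) and Edem1 (0.971). For Bmp2 they were Greb1 (0.986) and Rspo3 (0.96), for Bmp5 Rtf1 (0.99) and Limch1 (0.987), for Bmp6 Arhgap1 (0.989) and Csf1 (0.988), and for Bmp7 Kat5 and Cenph (both 0.981). For Gdf6 they were Cog2 (0.992) and Dcaf5 (0.99), for Nog Aplnr (0.978) and Dgkk (0.972), for Chrd Arrdc1 (0.967) and Nt5e (0.962), and for Grem1 Cdk10 and Ptgs1 (both 0.986). With 9 points that share their libraries and a choice among 11480 genes, these values describe likeness only.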

How the data were processed

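TruSeq libraries of total RNA from 27 mouse samples, 9 groups of 3, were sequenced as paired-end reads of 75 bp. Per the labels, the authors used cutadapt 1.9.1, STAR 2.5.2a and RSEM 1.3.0 with Ensembl release 86 on GRCm38. The deposited tables give, per gene, expected counts (estimates that need not be whole), TPM and FPKM, both normalized for effective length by the authors. TPM was used for levels, FPKM for an alternative. Expected counts were rounded to whole numbers and tested with edgeR 4.0.16 in R 4.3.3 (TMM, filterByExpr, 1 coefficient for each of the 9 groups, quasi-likelihood F test). The scripts were tested on simulated data. Groups were taken from the labels. Alternatives were DESeq2 1.42.0, other offsets, filters and thresholds, a replicate block and leaving out each library. The genes and lists were chosen with earlier results of these data known. Named beside the 10 genes were at most the 4 largest called changes per list and comparison, and the 2 most alike genes per member. Replicates were distinct libraries, with a chi-square per degree of freedom of 3.63 or more. Over 13477 genes, libraries of 1 number in different groups had a mean correlation of deviations of 0.019, and only for IM4 against IM3 were all 3 over 0.1 (mean 0.19). The values of 1 listed gene are not reported here.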

Additional observations from a re-analysis of the deposited data

Results flagged for a closer look

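The difference made by Activin A with CHIR99021 minus that without it differed from 0 at an adjusted p under 0.05 for 2 of the 10 genes in the edgeR test of the interaction, and neither reached the thresholds for a call. Gdf6 had an interaction of -0.66 ± 0.13 on the log2 scale (adjusted p = 0.0109), since it was lower with Activin A by more in the presence of CHIR99021 (-1.19) than in its absence (-0.53). Chrd had an interaction of 0.75 ± 0.16 (adjusted p = 0.0286), with an Activin A difference of 0.74 with CHIR99021 and -0.01 without. Both genes had 3 libraries in each of the 4 media.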

How the results depend on the processing

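None of the 110 fold changes (10 genes in 11 contrasts, 36 of them called) that was called in 1 setting was called in the opposite direction in another. Leaving out single libraries changed the call in 14 of 720 values, and the other alternatives in 44 of 1208. Without the fold minimum, the number of called genes was 4 for EpiSC against ESC (3 with it), 7 for IM1 against M (4), 9 for IM3 against M (7) and 6 for IM3 against IM1 (3). It was 5 for IM2 against IM3 (2), 7 for IM5 against IM4 (3), 1 for IM4 against IM3 (0), 3 for IM5 against IM2 (0) and 8 for iSLC against IM3 (5). Without the count minimum it was 5 for EpiSC against ESC (3), with Bmp5 and Gdf6 added. Grem1 was then also called for M against EpiSC, IM1 against M, IM3 against IM1 and iSLC against IM3. With an offset for GC content the number was 1 for IM5 against IM2 and 3 for iSLC against IM3. This offset also added Nog for IM1 against M and Bmp7 for IM5 against IM4, and dropped Bmp4 for IM3 against IM1. The same calls changed with the replicate block added. The replicate block alone kept every call, with 9 genes called for M against EpiSC. Leaving out a library gave 8 to 9 for M against EpiSC, 4 to 5 for IM1 against M, 2 to 4 for IM3 against IM1, 2 to 3 for IM5 against IM4 and 0 to 1 for IM5 against IM2. Of the 10 genes, 9 to 10 kept the group of their highest mean, the exception being Bmp6, highest in IM3 without IM2 replicate 2, IM2 replicate 3 or IM3 replicate 3. The sum of the 6 ligand genes stayed above that of the 4 antagonist or modulator genes in all 9 groups. Levels moved by over 1 SD in 91 of 180 recomputations with FPKM or TMM-scaled TPM. Depth limits Grem1 outside iSLC (159.7 mean normalized counts there), whose mean over all libraries missed the count minimum, and Bmp5 and Gdf6 in ESC and EpiSC, where counts were few.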
